A study of Mus musculus with 4 samples.

Results

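The genes described here build cholesterol and fatty acids. They are 31 listed genes, namely 19 enzymes of sterol synthesis, 4 genes that regulate sterol synthesis or carry sterol (Insig1, Srebf1, Srebf2 and Stard4) and 8 enzymes of fatty acid synthesis and desaturation. They were listed by name, with earlier results of these data known, and 17097 genes in all were named on the array. A probe set, the group of oligonucleotides that reports on 1 transcript, was named for 27 of the 31, and Acat2, Pmvk, Srebf1 and Scd2 were not analysed here. Where a gene had several, the brightest on average over the 4 arrays stood for it, and the mean of all of them served as a check. Of the 27 genes, 26 were above a floor of 3.19 on the log2 scale on at least 1 array, as were 10955 of all genes. The exception was Hmgcs1, which makes HMG-CoA at the entry to the mevalonate pathway. Its named probe set lay below the floor on all 4 arrays, at 2.67, 2.43, 1.92 and 2.05 on the Flk1+ and Flk1- arrays of control cells and then on those of knockout cells, so no fold is given for it.

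Mouse embryonic stem cells, either a control labelled F/F or a Snai1 knockout, were aggregated in hanging drops into embryoid bodies, which then differentiated in suspension. Cells dissociated on day 4 were separated with an antibody to Flk1 into Flk1+ and Flk1- fractions, and each fraction of each genotype was hybridised to 1 Affymetrix array. The 4 groups thus cross genotype (control or knockout) with fraction (Flk1+ or Flk1-). No group had a replicate, so no test was run, no difference below has a replicate check, and the number of arrays limits the precision. For the knockout Flk1- sample, 1 label names day 4 and another day 5, so day and group cannot be told apart there. The sources used here do not say how many lines, clones or cultures lie behind a sample. Flk1, encoded by Kdr, is the VEGF receptor that marks lateral mesoderm and the precursors of blood and vessels. Snai1 encodes a zinc finger repressor that acts on epithelial genes during the epithelial to mesenchymal transition.

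Cholesterol is made from acetyl-CoA through mevalonate, isoprenoid diphosphates, squalene and lanosterol, and the isoprenoids also feed protein prenylation, dolichol and ubiquinone. When sterol in the endoplasmic reticulum is low, the transcription factor SREBP travels with its escort SCAP to the Golgi, is cut there and enters the nucleus. INSIG proteins hold that complex back when sterol is ample. SREBP acts at promoters together with NF-Y and Sp1, and its targets include most enzymes of the sterol branch, Insig1 itself and enzymes of the fatty acid branch. The fatty acid branch turns citrate-derived acetyl-CoA into palmitate, which is then elongated and desaturated.

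Kdr checked the sort, at 8.92, 4.55, 9.03 and 3.88 on the control Flk1+, control Flk1- and knockout Flk1+ arrays and that of knockout Flk1- cells. Every set of 4 values below keeps this order, and each is on the log2 scale. Snai1 lay below the floor on all 4 arrays, between 1.88 and 2.56, so it did not check the genotype labels. The number of genes above the floor was 10195 to 10302 per array. The knockout Flk1+ array had the lowest SD over genes, 1.87 against 1.91 to 1.94. It also had the lowest 3' minus 5' difference of the Gapdh control probe sets, 1.47 against 1.76 to 2.05, a measure of RNA integrity and of how far the amplification reached. Values of a probe set are compared between arrays only, since levels of different probe sets are not on 1 scale.

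Sterol enzymes were mostly lower in knockout than in control Flk1+ cells. Of the 16 above the floor, 12 lay below 0 in the knockout minus control difference and 4 above it, and their median log2 difference was -0.52. Over all 10655 genes compared the median was -0.05, and 57.4% lay below 0. A decrease of at least 1.5-fold, that is 0.58 or more on the log2 scale, was seen for 4 of the 16, the genes Nsdhl, Msmo1, Mvk and Dhcr7, against 4.42% of all genes. An increase of that size was seen for 0 of the 16, against 3.26% of all genes. No sterol enzyme reached 2-fold, which 0.976% of all genes did downwards and 0.873% upwards. The SD of the same difference over 79 receptor genes, most of which are without signal in these cells, was 0.15. That figure covers array noise near the floor only, and not the spread between cultures. In sorted populations measured in bulk, fewer cells of a type and less RNA per cell cannot be told apart.

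**Figure D1:**
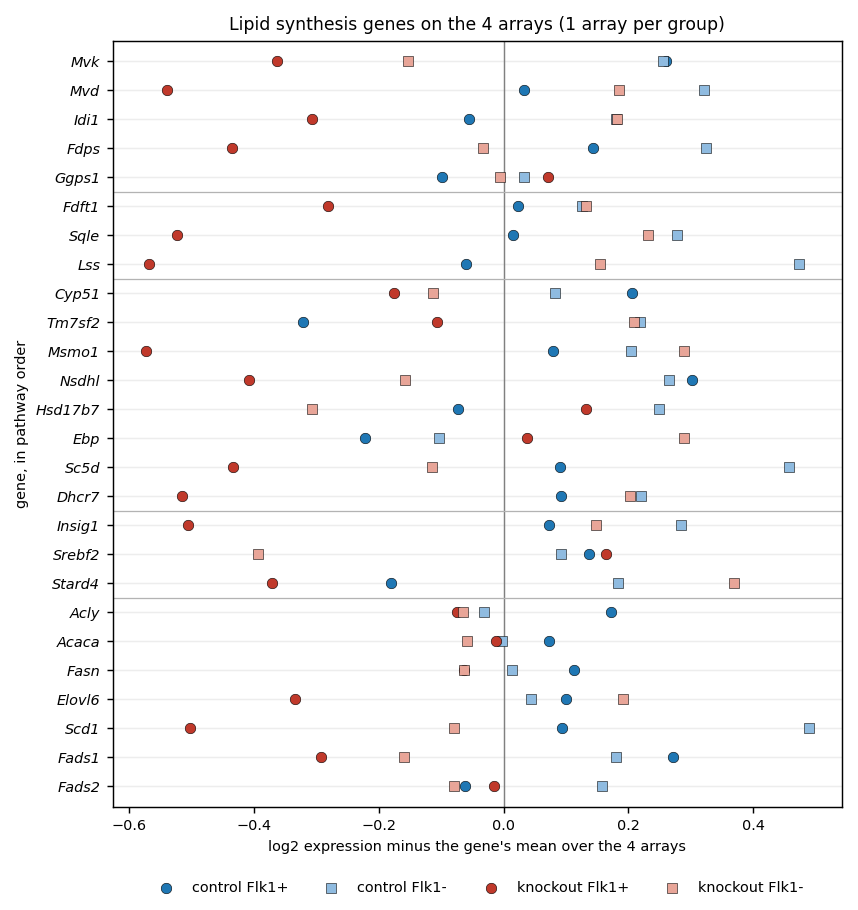
Log2 value of each of the 26 listed genes above the floor on the 4 arrays, as the deviation from the gene's own mean over the 4 arrays; circles are Flk1+ and squares Flk1- cells, blue control and red knockout, each a single array, with genes in pathway order. The knockout Flk1+ point is the lowest of the 4 for 12 of 16 sterol enzymes and for 4 of 7 fatty acid enzymes.

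Of the sterol enzymes at least 1.5-fold lower, 1 belongs to the early steps of the pathway, Mvk, and 3 act after lanosterol. Mvk, the kinase that phosphorylates mevalonate, had log2 values of 5.09, 5.08, 4.47 and 4.68. Both knockout arrays were below both control arrays, and the genotype difference was -0.62 in Flk1+ and -0.41 in Flk1- cells. A second Mvk probe set did not show this, with a difference of 0.18 in Flk1+ cells. Mvd, which decarboxylates the diphosphate of mevalonate, had 5.55, 5.84, 4.98 and 5.70. The knockout Flk1+ array was the low one and the other 3 lay within 0.29, so that the genotype difference was -0.57 in Flk1+ and -0.14 in Flk1- cells. A second Mvd probe set gave -0.24 and -0.67. Idi1, the isomerase of the 5-carbon units, was -0.25 in Flk1+ and 0.00 in Flk1- cells. Fdps, the farnesyl diphosphate synthase, was lower in both fractions, with differences of -0.58 and -0.36. Its difference in Flk1+ cells stood just short of 1.5-fold. Ggps1, which makes the geranylgeranyl diphosphate used in prenylation rather than in sterols, was among the 4 enzymes that were not lower, at 0.17. The median over the 5 enzymes from Mvk to Ggps1 was -0.57 in Flk1+ cells.

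The 3 enzymes that make and close squalene were all lower in knockout Flk1+ cells, against 57.4% of all genes. Their median of -0.51 is the deposited difference of Lss, which the floor limits. With Lss at its floor bound, the middle value is that of Fdft1, -0.31. Sqle, the squalene epoxidase, had log2 values of 6.75, 7.01, 6.21 and 6.96. The knockout Flk1+ array was the low one, with genotype differences of -0.54 in Flk1+ and -0.05 in Flk1- cells. Lss, which folds epoxidised squalene into lanosterol, had 3.33, 3.86, 2.82 and 3.54. The knockout Flk1+ value of Lss was below the floor, which makes control Flk1+ cells at least 1.10-fold higher. Fdft1, the squalene synthase, differed by -0.31 in Flk1+ and by 0.01 in Flk1- cells.

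Of the 8 enzymes that convert lanosterol to cholesterol, 5 were lower in knockout Flk1+ cells, near the 57.4% of all genes. Their median was -0.45, against -0.05 over all genes. Msmo1 starts the removal of the methyl groups at carbon 4 and had log2 values of 5.85, 5.97, 5.20 and 6.06. The knockout Flk1+ array stood apart from the other 3, which lay between 5.85 and 6.06, and the difference from control Flk1+ was -0.65. The second Msmo1 probe set differed by -0.02 there. Nsdhl acts next in that removal and had values of 5.78, 5.75, 5.07 and 5.32. As for Mvk, both knockout arrays were below both control arrays, with differences of -0.71 in Flk1+ and -0.42 in Flk1- cells, and Nsdhl has 1 probe set. Dhcr7, the reductase of the last step to cholesterol, had 7.22, 7.35, 6.62 and 7.33. Its low array was again knockout Flk1+, with a difference of -0.61 there and of -0.02 in Flk1- cells.

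The other enzymes after lanosterol did not share 1 pattern. Sc5d, which desaturates lathosterol, was lower in the knockout, with differences of -0.52 in Flk1+ and -0.57 in Flk1- cells on the 1 of its 3 probe sets above the floor. Cyp51, the lanosterol demethylase, differed by -0.38 and -0.20 in the same comparisons. Hsd17b7, the ketoreductase of the demethylation complex, had values of 4.77, 5.09, 4.97 and 4.54. It was 0.21 in Flk1+ and -0.56 in Flk1- cells, so the low array was knockout Flk1- instead. Tm7sf2, a sterol reductase, and Ebp, the sterol isomerase, were 0.21 and 0.26 in Flk1+ cells. The 4 enzymes above 0 in Flk1+ cells (Ggps1, Tm7sf2, Hsd17b7 and Ebp) all had a mean value of 5 or less over the arrays. Of the 6 sterol enzymes with such low means, only Mvk and Lss were lower in the knockout. Among the 8 with means between 5 and 7 the median was -0.56, against -0.08 for the 3765 genes in that range.

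**Figure D2:**
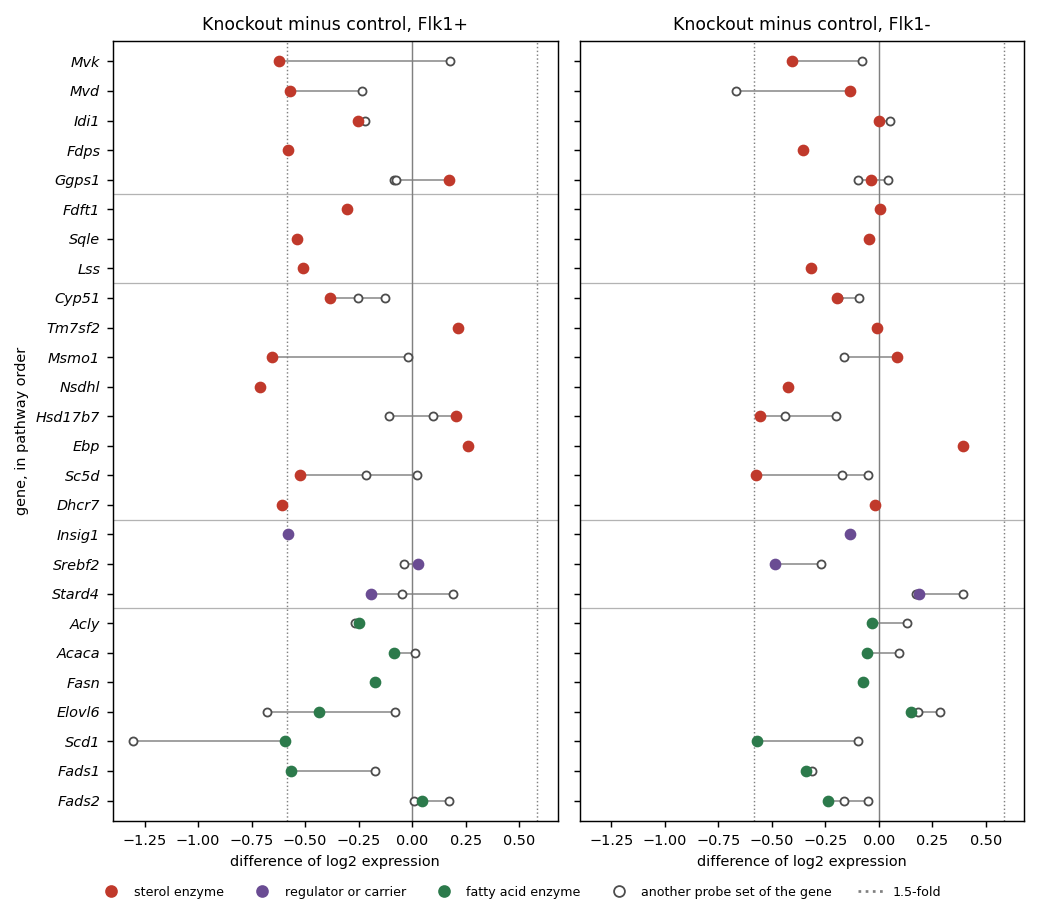
Knockout minus control difference in log2 value for each of the 26 genes in Flk1+ and in Flk1- cells, each point from 2 single arrays; filled points are the probe set used, open points its others (some below the floor), and dotted lines 1.5-fold. In Flk1+ cells the filled points of Nsdhl (-0.71), Msmo1 (-0.65), Mvk (-0.62), Dhcr7 (-0.61) and Scd1 (-0.60) lie past the line, and in Flk1- cells no filled point does.

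The 1.5-fold count depended on settings, while the number of genes below 0 did not in those given here. It was 4 with the chosen probe sets, 2 when all probe sets of a gene were averaged, 2 with a further quantile normalization or with centring, and 1, Nsdhl, with cyclic loess, whereas 12 of 16 genes were below 0 under each of these. The median was -0.28 with the mean of the probe sets. Over all genes, 471 were lower and 347 higher by 1.5-fold as deposited, and 358 lower and 447 higher after centring, so the balance of all genes in this comparison turned with the scaling.

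Promoters of 4 sterol enzymes are shown because the genes share low values on the knockout Flk1+ array (Mvk, Msmo1 and Nsdhl) or hold the letters of the sterol regulatory element (Hmgcs1), and that of Elovl6 as a fatty acid enzyme that was also low on that array. All 5 were chosen after their values were seen. The sequences are from RefSeq on GRCm38.p6, run from 250 bases before to 50 after the start, and are written 5′ to 3′ on the strand of the gene. Capitals mark the NF-Y box, CCAAT or its reverse complement ATTGG, and in Hmgcs1 also the core of the sterol regulatory element, searched as TCACNCCAC on both strands. The windows are chr5:114444019-114444318 (plus strand) for Mvk, chr8:64733529-64733828 (minus) for Msmo1, chrX:72918271-72918570 (plus) for Nsdhl, chr13:119690101-119690400 (plus) for Hmgcs1 and chr3:129532136-129532435 (plus) for Elovl6. They hold 5 NF-Y boxes in Mvk, 3 in Msmo1, 4 in Nsdhl, 4 in Hmgcs1 and 0 in Elovl6. The windows of Acly and Fasn, also fatty acid enzymes and not shown, do hold the box.
Mvk: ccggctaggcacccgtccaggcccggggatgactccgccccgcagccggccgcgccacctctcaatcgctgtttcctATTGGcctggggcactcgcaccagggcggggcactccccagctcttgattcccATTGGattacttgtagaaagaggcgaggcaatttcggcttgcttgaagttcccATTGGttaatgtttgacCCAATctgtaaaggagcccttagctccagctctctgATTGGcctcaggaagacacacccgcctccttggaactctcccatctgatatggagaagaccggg
Msmo1: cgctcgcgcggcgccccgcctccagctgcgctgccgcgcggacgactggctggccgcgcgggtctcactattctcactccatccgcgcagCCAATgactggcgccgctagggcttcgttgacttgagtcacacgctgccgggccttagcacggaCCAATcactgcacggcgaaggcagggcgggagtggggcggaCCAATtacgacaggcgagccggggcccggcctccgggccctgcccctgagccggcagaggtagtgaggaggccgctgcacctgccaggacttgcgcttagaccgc
Nsdhl: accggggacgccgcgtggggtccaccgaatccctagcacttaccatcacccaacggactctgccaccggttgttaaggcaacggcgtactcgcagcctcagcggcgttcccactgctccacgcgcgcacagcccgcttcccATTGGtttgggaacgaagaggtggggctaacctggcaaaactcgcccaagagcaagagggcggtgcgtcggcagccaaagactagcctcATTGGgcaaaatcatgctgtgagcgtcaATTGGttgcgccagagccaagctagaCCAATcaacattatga
Hmgcs1: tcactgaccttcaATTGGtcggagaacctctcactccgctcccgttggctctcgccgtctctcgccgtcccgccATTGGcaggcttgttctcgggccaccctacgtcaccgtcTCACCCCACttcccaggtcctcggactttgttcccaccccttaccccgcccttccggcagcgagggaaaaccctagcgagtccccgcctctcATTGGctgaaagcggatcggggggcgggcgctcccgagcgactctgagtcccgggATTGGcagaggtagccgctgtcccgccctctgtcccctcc
Elovl6: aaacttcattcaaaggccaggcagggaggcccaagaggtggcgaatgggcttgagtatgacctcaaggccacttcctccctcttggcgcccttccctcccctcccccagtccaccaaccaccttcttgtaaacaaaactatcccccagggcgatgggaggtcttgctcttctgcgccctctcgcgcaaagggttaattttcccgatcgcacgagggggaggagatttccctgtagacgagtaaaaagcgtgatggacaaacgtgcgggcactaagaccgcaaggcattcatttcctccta

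Across the sterol enzymes, windows were given for 16 of the 19 listed genes, 19 windows in all. The NF-Y box was in 15 of the 19, against 37.4% of 32851 promoter windows of the same length, and 10 held at least 2 boxes, against 11.7% of all windows. The Sp1 box GGGCGG, searched on both strands, was also in 15 of the 19, against 35.7%. The core TCACNCCAC was in 1 of the 19, Hmgcs1, against 1.24%. The E-box CAGGTG, to which Snail factors bind, was in 4 of the 19, belonging to 3 genes, against 20.2%. Of the 5 windows of fatty acid enzymes, 2 held an NF-Y box, those of Acly and Fasn, and 1 of them, Fasn, held at least 2. An Sp1 box was in 2 of the 5 and the E-box in 0. The 5 windows of Insig1, Srebf1 and Srebf2 included 4 with an NF-Y box, 4 with an Sp1 box and 3 with the E-box. Motifs were counted separately, so matches that overlap count for each. A match only says that the letters are present, and windows of a gene with several starts are not independent.

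In Flk1- cells the genotype difference of the sterol branch was small. The median over the 16 enzymes was -0.09 and 12 were below 0, against a median of 0.04 and 43.1% below 0 over all 10533 genes. A 1.5-fold decrease was seen for 0 of 16, against 2.53% of all genes, and a 1.5-fold increase for 0 of 16, against 2.97%. The enzymes furthest down were Sc5d (-0.57), Hsd17b7 (-0.56), Nsdhl (-0.42) and Mvk (-0.41), and the furthest up was Ebp (0.39). Centring placed 2 enzymes past 1.5-fold downwards here and cyclic loess 1. Centring also turned the split of all genes past 1.5-fold from 267 lower and 313 higher to 331 lower and 233 higher.

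Both genotype comparisons were below 0 for 9 of the 16 sterol enzymes and 5 of the 7 fatty acid enzymes, against 26.8% of all genes. In size, the genotype difference was larger in Flk1+ than in Flk1- cells for 13 of 16 sterol enzymes, against 55.4% of all genes. The difference of the 2 genotype differences, Flk1+ minus Flk1-, had a median of -0.22 over sterol enzymes and -0.07 over all genes. It was below 0 for 12 of 16, against 58.7% of all genes. It passed 1.5-fold downwards for Msmo1 (-0.74) and Dhcr7 (-0.59), 2 of 16 against 6.95% of all genes, with 0.15 on the second Msmo1 probe set. Hsd17b7 passed 1.5-fold upwards (0.76), 1 of 16 against 3.93%, with 0.33 and 0.30 on its other probe sets. Over the 25 probe sets above the floor for the 16 sterol enzymes, the difference of the genotype differences was below 0 for 14 and above 0 for 11. Its median there was -0.13. For the 8 enzymes with several probe sets its median was -0.20 with the chosen probe set and 0.01 with their mean. With 1 array per group this quantity was not tested.

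The sort itself was the other contrast. In control cells, 13 of 16 sterol enzymes were lower in Flk1+ than in Flk1- cells, with a median of -0.16, against -0.01 and 51.7% of all genes. A 1.5-fold decrease was seen for 0 of the 16, against 4.76% of all genes, and such an increase for 0, against 3.48%. The furthest were Tm7sf2 (-0.54) and Lss (-0.53). In knockout cells 14 of 16 were lower in Flk1+ cells, with a median of -0.36, against -0.08 and 58.6% of all genes. There 5 of the 16 were at least 1.5-fold lower, against 10.6% of all genes, and 0 were that much higher, against 4.35%. They were Msmo1 (-0.86), Sqle (-0.75), Mvd (-0.73), Lss and Dhcr7 (-0.72). For Lss, counted from its deposited values, knockout Flk1- cells were at least 1.27-fold higher against the floor. The second probe sets of Msmo1 and Mvd did not show such a decrease, at 0.03 and -0.15. Mvd, Sqle and Lss had not passed 1.5-fold between genotypes. This contrast uses the knockout Flk1+ array that the genotype comparison in Flk1+ cells also uses, so low values on it enter both.

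Scaling shifted all genes in this contrast. Centring each array moved the median of all genes in the knockout sort comparison from -0.08 to 0.09, and the split of all genes past 1.5-fold from 1133 lower and 465 higher to 623 lower and 815 higher. For the difference of the genotype differences the split moved from 761 lower and 431 higher to 444 lower and 767 higher. Over sterol enzymes, the knockout sort median stayed below 0 under each alternative tried, between -0.37 and -0.21. The count past 1.5-fold was 3 under centring, 2 lower and 1 higher, and 2 with cyclic loess.

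**Figure D3:**
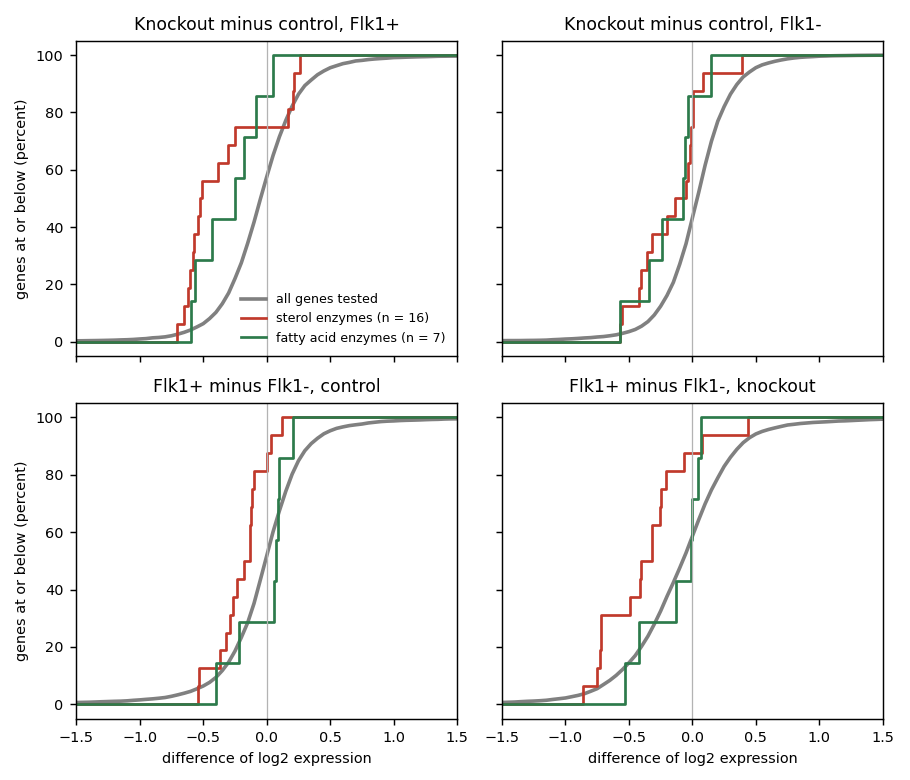
Cumulative share of genes against the difference in log2 value, for sterol enzymes, fatty acid enzymes and all genes above the floor, in each 2-array comparison. The sterol curve lies left of all genes most clearly for knockout minus control in Flk1+ cells (median -0.52 against -0.05) and Flk1+ minus Flk1- in knockout cells (-0.36 against -0.08).

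The knockout Flk1+ array was the lowest of the 4 for 12 of 16 sterol enzymes, against 34.4% of the 10955 genes. By steps it was the lowest for 4 of 5 enzymes from Mvk to Ggps1, for 3 of 3 squalene enzymes and for 5 of 8 enzymes after lanosterol. Control Flk1- was the highest array for 8 of 16, against 16.6% of all genes. As given above, the knockout Flk1+ array also had the narrowest spread over genes and the lowest 3' minus 5' difference. Their part in the result was not tested.

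Regulators and the carrier did not share 1 pattern. Insig1, which retains SREBP in the endoplasmic reticulum and is itself an SREBP target, had log2 values of 7.67, 7.88, 7.09 and 7.75. The knockout Flk1+ array was low and the other 3 lay within 0.21, so the genotype difference was -0.58 in Flk1+ and -0.14 in Flk1- cells. Srebf2, which encodes the SREBP most concerned with sterols, had 7.20, 7.15, 7.23 and 6.67. Its low array was knockout Flk1-, with genotype differences of 0.03 in Flk1+ and -0.49 in Flk1- cells. A second Srebf2 probe set gave -0.04 and -0.27. Stard4, a soluble carrier of cholesterol between membranes, had 6.02, 6.38, 5.83 and 6.57. Both Flk1+ arrays were below both Flk1- arrays, with differences of -0.36 in control and -0.74 in knockout cells. In the knockout sort comparison Insig1 (-0.65) and Stard4 were thus past 1.5-fold downwards, 2 of 3 genes, against 10.6% of all genes, a share that centring lowered. Srebf2 was 0.56 there.

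Median differences of fatty acid enzymes were nearer 0 than those of sterol enzymes in each comparison of 2 arrays, though hardly in Flk1- cells. In Flk1+ cells 6 of 7 were lower in the knockout, against 57.4% of all genes, with a median of -0.25. At least 1.5-fold lower was 1 of 7, Scd1, against 4.42% of all genes. The sterol median minus the fatty acid median was -0.27 with the chosen probe sets. With the mean of probe sets the medians were -0.28 for sterol and -0.26 for fatty acid enzymes, so the branches hardly differed there. Means over members were -0.34 and -0.29. In Flk1- cells 6 of 7 fatty acid enzymes were also below 0, against 43.1% of all genes, with a median of -0.08. The sterol median was -0.09 there, and means over members were -0.17 for fatty acid and -0.16 for sterol enzymes. Between sorted fractions the fatty acid medians were 0.08 in control and -0.01 in knockout cells, and neither direction held in every setting. The first was -0.01 when the mean over the 7 genes was taken in place of the median, and the second turned positive under centring, quantile normalization and cyclic loess. With the chosen probe sets 0 of 7 passed 1.5-fold in Flk1- cells or between fractions. The shares of all genes lower by that much were 2.53% there, 4.76% between control and 10.6% between knockout fractions.

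The enzymes that build palmitate differed little across the arrays on the probe sets used. Acly, which cuts citrate to give acetyl-CoA, had log2 values of 8.13, 7.92, 7.88 and 7.89. The 4 values lay within 0.25, with control Flk1+ the highest. A second Acly probe set read 6.49, 6.64, 6.22 and 6.77. There the knockout Flk1+ array was the lowest, with a difference of -0.27 from control Flk1+ and of -0.55 from knockout Flk1- cells. Acaca, the acetyl-CoA carboxylase of the committed step, had 5.76, 5.69, 5.68 and 5.63, a range of 0.13. Fasn, the fatty acid synthase, had 7.50, 7.40, 7.33 and 7.33, a range of 0.18, with both knockout arrays below both control arrays. Its genotype difference was -0.18 in Flk1+ and -0.08 in Flk1- cells, close to the receptor gene SD of 0.15 and 0.13.

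Enzymes that lengthen and desaturate the chain varied more. Scd1, which introduces the first double bond into stearate and palmitate, had log2 values of 6.76, 7.16, 6.17 and 6.59. Each knockout array was below the control array of its fraction, with differences of -0.60 in Flk1+ and -0.57 in Flk1- cells. The second Scd1 probe set read 6.76, 6.79, 5.46 and 6.69. It placed the knockout Flk1+ array alone at the bottom, with genotype differences of -1.30 and -0.10, so the 2 probe sets disagreed on whether Flk1- cells differed. Elovl6, which elongates palmitate, had 6.67, 6.61, 6.23 and 6.76. Knockout Flk1+ was its low array, -0.43 from control, with -0.68 on a second probe set. In Flk1- cells these gave 0.15 and 0.18, and the remaining probe set lay below the floor on 3 of the 4 arrays. Fads1, a desaturase of polyunsaturated fatty acids, had 7.62, 7.53, 7.06 and 7.19. Both knockout arrays were below both control arrays, with differences of -0.56 and -0.34. Fads2, the desaturase that acts before Fads1, had 6.05, 6.27, 6.10 and 6.03 on a probe set that may share probes with other transcripts. Its 4 values lay within 0.24 and followed no genotype order.

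**Figure D4:**
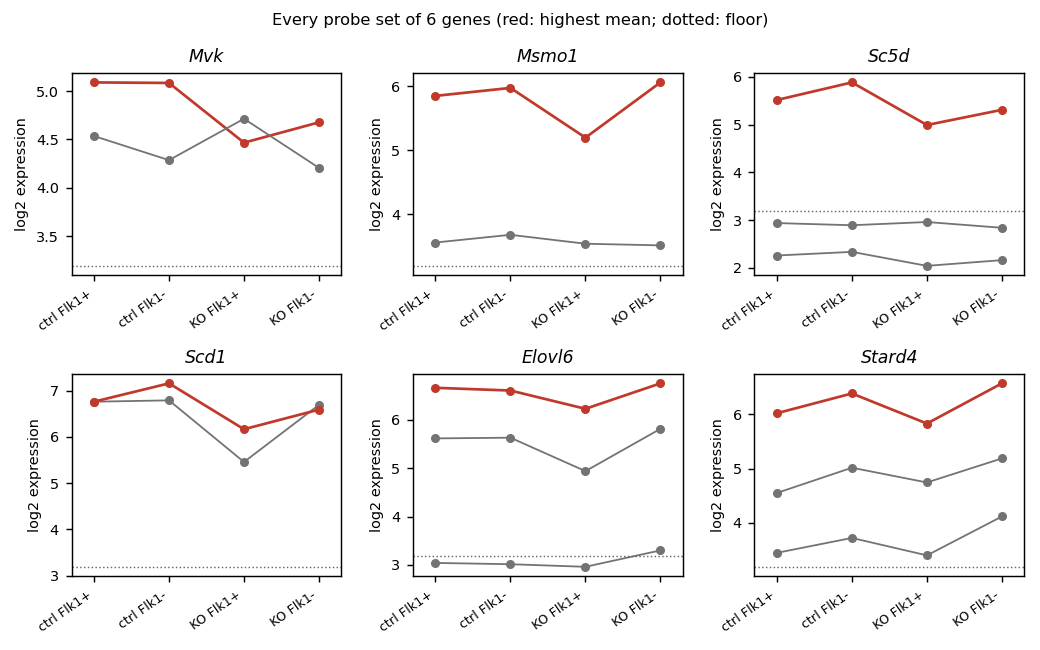
Log2 value of every probe set of Mvk, Msmo1, Sc5d, Scd1, Elovl6 and Stard4 on the 4 arrays, with the probe set used in red, the others in grey and the floor of 3.19 as a dotted line. The 2 Mvk lines move in opposite directions between the Flk1+ arrays (-0.62 and 0.18), while both Scd1 lines are lowest on the knockout Flk1+ array.

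Probe sets of 1 gene gave a second view of each transcript on the same arrays. Over all 25 probe sets above the floor for the 16 sterol enzymes, 19 were lower in knockout Flk1+ cells and the median was -0.24. For the 8 sterol enzymes with 1 probe set the median was -0.52. For the 8 with several it was -0.45 with the chosen probe set and -0.24 with their mean. In that comparison the probe sets of a gene above the floor on at least 1 array differed by at least 1.5-fold for 4 of 15 listed genes, against 13.0% of 4122 genes. Elovl6 is among the 4 through the probe set that was below the floor on both Flk1+ arrays. Over the 15 fatty acid probe sets the median was -0.18, and 11 were lower.

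No other lipid list had a median as low as that of the sterol enzymes between genotypes in Flk1+ cells. A list of SREBP processing genes (8 compared) mixed genes that move and cut SREBP with genes that do not. The first are Scap, Mbtps1 and Mbtps2. The others are Insig2, which holds SREBP back, Rnf139, Ubxn8, Erlin1 and Erlin2. Over the 8 genes the medians were -0.05 between genotypes in Flk1+ and 0.15 in Flk1- cells. With the chosen probe sets all 8 were lower in Flk1+ than in Flk1- cells in both genotypes. The shares of all genes were 51.7% in control and 58.6% in knockout cells, and the medians of the list -0.16 and -0.37. Not every probe set shared this direction. The highest value among the Mbtps1 probe sets was 0.29 in control and 0.28 in knockout cells, and the other Rnf139 probe set was 0.03 in knockout cells. This list was not rerun under the other scalings. Erlin1 (-0.95), a membrane protein that binds the SREBP complex, and Insig2 (-0.64), the partner of Insig1, were the furthest in the knockout, although the other Erlin1 probe set was 0.06. The knockout Flk1- array was the highest for 7 of the 8, against 36.9% of all genes. Lbr, a nuclear envelope protein that also reduces the double bond which Tm7sf2 reduces, had values of 7.66, 7.96, 7.18 and 8.0. Its lowest array was knockout Flk1+, as for most sterol enzymes, and it was -0.48 from control Flk1+ and -0.83 from knockout Flk1- cells.

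Genes of sterol storage, export and the LXR receptors, which respond to sterol excess, had medians of 0.10 in Flk1+ and 0.03 in Flk1- cells over 10 genes. Apoe, which carries cholesterol out of cells, had 6.62, 6.07, 7.31 and 6.51. The highest array was knockout Flk1+, 0.70 above control Flk1+ and 0.80 above knockout Flk1- cells. The 9 genes of protein prenylation, dolichol and ubiquinone, which use isoprenoids from the same pathway, had medians of -0.08 and 0.19. Pdss2, a subunit of the synthase of the ubiquinone side chain, was 0.60 in Flk1- cells and the only one of the 9 past 1.5-fold between genotypes. Its other probe set gave 0.38. Rabggtb, a subunit of the enzyme that prenylates Rab proteins, was -0.60 between the knockout fractions.

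Further genes of fatty acid synthesis had medians of -0.03 over 15 genes in Flk1+ and 0.09 over 14 in Flk1- cells. Me1, the malic enzyme that supplies NADPH, had 4.13, 4.22, 3.52 and 4.26. Its knockout Flk1+ array was the low one, -0.61 from control, with -0.21 on its other probe set. Elovl4, an elongase of very long chains, was at least 1.45-fold higher in knockout than in control Flk1+ cells, with -0.09 on its other probe set. Acss2, which makes acetyl-CoA from acetate and is an SREBP target, was lower in Flk1+ than in Flk1- cells in both genotypes, with differences of -0.76 in control and -0.74 in knockout cells. Elovl1, an elongase of saturated chains, was 0.62 between the control fractions on a probe set that may share probes with other transcripts. Its other probe set gave 0.31. Among 10 genes of fatty acid activation and glycerolipid synthesis the medians were -0.12 and 0.03. Agpat3, an acyltransferase of phospholipid synthesis, was 0.77 in Flk1+ cells. Acsl5 was 0.63 between genotypes in Flk1- cells and Acsl4 was -0.96 between the knockout fractions, and both activate long-chain fatty acids.

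**Figure D5:**
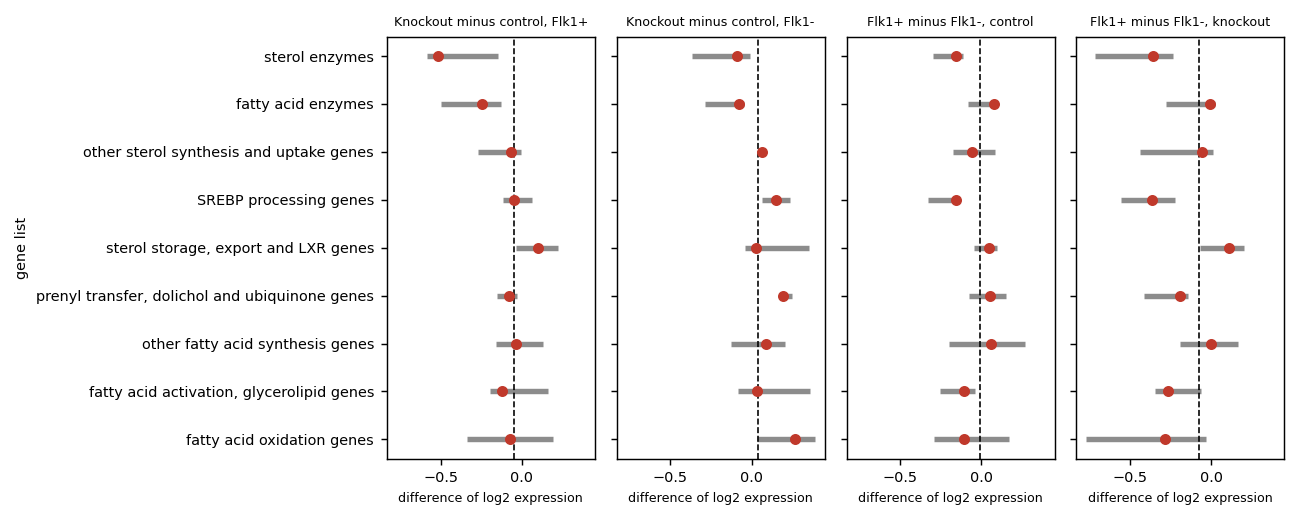
Difference in log2 value for the genes of 9 lipid lists in each 2-array comparison; red points are list medians, grey bars run from the lower to the upper quartile over genes, and dashed lines are the median of all genes. The sterol enzymes have the lowest median for knockout minus control in Flk1+ cells (-0.52), and those of the other 8 lists lie between -0.25 and 0.10.

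Markers of cell types differed between the same arrays. The 8 endothelial markers were all above the floor in both Flk1+ samples, and their summed linear level was 897 in control and 878 in knockout Flk1+ cells, against 77.1 and 70.7 in Flk1- cells. Kdr, the gene sorted on, makes up much of that sum. Between genotypes in Flk1+ cells 5 of the 8 were lower, near the 57.4% of all genes, with a median of -0.25. The lower ones included Erg and Pecam1 (-0.56 each), Tal1 (-0.49) and Cdh5 (-0.33), and the 3 higher ones reached at most 0.11. The summed level of 6 pluripotency markers, in the order used above, was 78.5, 631, 244 and 1092. For 5 erythroid markers it was 117, 2329, 29.3 and 32.3, and the knockout samples had 1 of 5 above the floor. For 5 cardiac markers it was 263, 410, 74.1 and 49.3, and for 5 mesenchymal markers 369, 183, 141 and 74.9. The 6 epithelial markers, all above the floor on every array, summed to 1247, 1931, 1985 and 2455, and the 8 endoderm markers to 297, 540, 411 and 571. Endoderm markers differed in both directions between genotypes in Flk1+ cells, with Cer1 at 2.18, Sox17 at 0.96 and Foxa2 at 0.84 but Ttr at -2.10 and Apob at -0.63. A sum rests mostly on the markers with the strongest signal. Knockout and control Flk1+ cells thus differed by at least 1.5-fold in markers of every list but the endothelial one, where 0 of 8 did, as well as in some sterol enzymes. The part of these markers in the sterol result was not tested.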

How the data were processed

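The values used were log2 expression values of 45141 Affymetrix probe sets on 4 arrays, as the authors deposited them. RMA and limma are the tools named, per the submitters' processing notes, without version or role. Other steps are not given in the sources used here. The cDNA was amplified from 50 ng of RNA, per the labels' protocols. The 104 control probe sets were left out, and 28898 of the others named 1 gene. Probe sets that named several genes (551) or none (15588) were not used. The floor was the 40th percentile of all gene values, 3.19. A gene entered a comparison of 2 arrays if it was above the floor on either.

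With 1 array per group no test was run, and intervals cannot be given. Differences were counted from 1.5-fold, with median, direction and count set beside those of all genes. The 31 genes and all lists were chosen with earlier results of these data known. Members past 1.5-fold, the regulators, the carrier and the fatty acid enzymes are given on all arrays, and up to 4 of each other list by size. Promoter windows came from RefSeq tables for GRCm38.p6.

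Alternatives were the mean of probe sets, leaving out _s_at and _x_at probe sets, a further quantile normalization, centring on the median of genes above the floor, cyclic loess (span 0.3, 3 rounds, limma 3.58.1), a floor at the median or none, values set to the floor, the mean over members, and size rules of 0.32 on the log2 scale (looser) or 2-fold (stricter). Scripts used Python 3.11.15, pandas 2.3.3 and R 4.3.3 and were tested on simulated data.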

Additional observations from a re-analysis of the deposited data

Results flagged for a closer look

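Acadl, the dehydrogenase that starts the oxidation of long-chain fatty acids, differed between genotypes in opposite directions in the sorted fractions. Its knockout minus control difference was -0.37 on the log2 scale in Flk1+ cells and 0.41 in Flk1- cells, and the first minus the second was -0.78. It is singled out because both differences were at least 0.32 in size and of opposite sign. The difference between fractions was not tested, since each group had 1 array. The other Acadl probe set gave 0.21 and 0.03. No gene of the sterol branch or the fatty acid branch met this criterion.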

How the results depend on the processing

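No paired analysis was possible because there is 1 array per group and the labels give no replicate numbers. The median knockout minus control difference of sterol enzymes in Flk1+ cells was -0.52, -0.28 with the mean of probe sets and -0.34 as the mean over members. It stayed below 0 in each alternative, as did the sterol medians of the other comparisons. No median of either branch past the receptor gene SD changed sign.

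Numbers of genes past 1.5-fold moved more, and the looser rule below is 0.32 on the log2 scale and the stricter one 2-fold. For sterol enzymes between genotypes in Flk1+ cells (4), they were 2 with the mean of probe sets, 2 with quantile normalization, 2 with centring, 1 with cyclic loess, 10 at the looser rule and 0 at the stricter rule. In Flk1- cells (0) they were 1 without _s_at and _x_at probe sets, 1 with quantile normalization, 2 with centring, 1 with cyclic loess and 6 at the looser rule. Between control fractions (0) the number was 4 at the looser rule. Between knockout fractions (5) they were 3 with the mean of probe sets, 3 with centring, 2 with cyclic loess, 9 at the looser rule and 0 at the stricter rule. For the difference of differences (3) they were 1 with the mean of probe sets, 5 at the looser rule and 0 at the stricter rule.

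For fatty acid enzymes in Flk1+ cells (1) they were 0 with quantile normalization, centring, cyclic loess and the stricter rule, and 3 at the looser rule. In Flk1- cells (0) they were 1 with quantile normalization, centring and cyclic loess, and 2 at the looser rule. Between control fractions (0) the number was 1 at the looser rule. Between knockout fractions (0) they were 1 with the mean of probe sets and 2 at the looser rule. For the difference of differences (0) they were 2 with the mean of probe sets and 1 at the looser rule. The floor settings changed none of these by over 1.5 times. The causes of these moves were not tested, apart from the size rules, which change the count by construction. Signal near the floor limits Lss, Elovl4 and Hmgcs1.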

Other observations

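Genes of fatty acid oxidation, the pathway that burns what the enzymes above build, passed 1.5-fold most often between the knockout fractions. In knockout cells 7 of 15 were at least 1.5-fold lower in Flk1+ than in Flk1- cells, against 10.6% of all genes, and the median was -0.29 against -0.08. The furthest were Acadl (-1.33), Slc25a20 (-0.96), which carries acylcarnitines into mitochondria, Eci1 (-0.84), an enoyl-CoA isomerase, and Acadm (-0.81), the medium-chain dehydrogenase. The probe sets of Acadl disagreed, with 0.22 on the other, whereas those of Slc25a20 were -0.96 and -0.78. Ppard, a nuclear receptor that drives oxidation genes, was 0.68 and the only one of the 15 that was 1.5-fold higher. Centring moved the split of all genes past 1.5-fold between these fractions from 1133 lower and 465 higher to 623 lower and 815 higher. The oxidation genes were not rerun under it. In control cells 0 of 14 passed 1.5-fold, with a median of -0.11. Between genotypes the median was -0.07 in Flk1+ cells, where Hadhb, a subunit of the trifunctional protein, was -0.70 with 0.25 on its other probe set. In Flk1- cells it was 0.27, with 12 of 15 higher in the knockout and 3 lower, where 43.1% of all genes were lower. Eci1 had log2 values of 4.96, 5.47, 5.16 and 6.01 on the Flk1+ and Flk1- arrays of control cells and then of knockout cells, so the knockout Flk1- array was the highest. That array is the 1 whose labels name both day 4 and day 5, and the part of the day in these values was not tested.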
